A study of Mus musculus with 2 samples.

Results

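Transforming growth factor beta (TGF-beta) signalling was described here through the genes of its 3 ligands (Tgfb1, Tgfb2, Tgfb3), its 3 receptors (Tgfbr1, Tgfbr2, Tgfbr3) and its 4 latent binding proteins (Ltbp1, Ltbp2, Ltbp3, Ltbp4). These 10 genes were chosen by symbol, 10 of 55415 genes in the deposited gene table. The rule used no measured value, but earlier results of these data were known when the genes were chosen. Transcripts were counted cell by cell in mouse liver cells labelled biliary epithelial cells, the cells that line the bile ducts. There was 1 library of genotype Sox9cKO and 1 of genotype Sox9con. Sox9 is a transcription factor of these cells, and the series title calls the former Sox9-deficient. The Cre driver, the age of the animals and the number of animals per library are not given in the sources used here. With 1 library per group, no test between the genotypes was possible, and every difference below describes these 2 libraries only.

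TGF-beta is made as a precursor whose propeptide stays wrapped around the mature growth factor. Latent binding proteins tether this inactive complex to the extracellular matrix, and integrins or proteases release the ligand from it. The freed ligand binds the type II receptor, which recruits and phosphorylates the type I receptor, and SMAD proteins carry the signal to the nucleus. In the liver the pathway is known for its part in fibrosis, growth arrest and bile duct development.

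The library labelled Sox9cKO held 2740 cells and 14856321 transcript counts (UMIs, counts of unique molecular identifiers). That labelled Sox9con held 3622 cells and 12811243 UMIs. After filtering, 2604 and 3372 cells formed the biliary fraction, with a median of 5125.5 and 3226.5 UMIs per cell, and 83 and 115 cells were endothelial-like. All 14 biliary markers reached 50 CPM (UMIs of a gene per 1000000 UMIs of the cells summed) in the biliary fraction of both libraries, and all 14 endothelial markers did so in the endothelial-like cells. The summed level of the biliary markers was lower under the Sox9cKO label, at 12273 CPM (wells 11201 to 13673) against 18911 CPM (wells 14981 to 22592), and its part in the differences below was not tested. No cell barcode was shared between the libraries. Sox9 itself stood at 122 CPM in the biliary fraction of the Sox9cKO-labelled library and at 146 CPM in the Sox9con-labelled one, and 10 of the 20 pairs of a Sox9cKO-labelled with a Sox9con-labelled well went each way. The pooled log2 ratio of Sox9 was -0.26 (-0.35 to -0.16). In 7 of the 8 portions into which the barcoded cells were divided (sublibraries), Sox9 was lower under the Sox9cKO label, and in 1 higher. With wells going both ways, the counts of Sox9 do not settle the labels, and the libraries are called by them. The 5 first-round barcoding wells of the Sox9cKO-labelled library and the 4 of the Sox9con-labelled library were taken as technical parts of a library and served as a measure of spread.

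Per kilobase of merged exons, Ltbp1 was the most abundant of the 10 transcripts in the biliary fraction, at 167 CPM per kb in the Sox9cKO-labelled and 80.0 in the Sox9con-labelled library. Tgfb2 followed at 42.7 and 40.4 CPM per kb. Tgfbr2 stood at 33.5 and 22.4, and Tgfbr1 at 27.2 and 26.6 CPM per kb, and the ranges of the 2 receptors over wells overlapped within each library. The other 6 genes lay far below, between 1.53 (Tgfb1) and 4.96 (Ltbp3) CPM per kb in the Sox9cKO-labelled library and between 0.0903 (Ltbp2) and 4.28 (Tgfbr3) in the Sox9con-labelled one. Ltbp4, Tgfb3, Ltbp2 and Tgfb1 had overlapping well ranges in the Sox9cKO-labelled library, so their order there is not fixed. Reads inside introns may have been counted, and the genes differ in length from 17.6 kb (Ltbp3) to 387 kb (Ltbp1). Per kilobase of the whole gene Ltbp1 was at 4.6 and 2.21 CPM per kb and no longer led in the Sox9con-labelled library, where Tgfbr1 had 2.82 and Tgfb2 2.81. In any of these units Tgfb2 was the main ligand transcript of the biliary fraction.

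Between the libraries, Ltbp1 and Ltbp2, 2 of the 10 genes, exceeded a 2-fold difference upward in the Sox9cKO-labelled biliary fraction, and none was at least 2-fold lower. Over all 9330 genes with at least 200 UMIs, a condition that all 10 met, 2.19% passed that fold upward, 1.79% downward and 3.98% either way. The levels of 3 genes (Tgfbr2, Ltbp1, Ltbp2) did not overlap between the wells of the libraries, all being higher in the Sox9cKO-labelled wells. That was so for 7.63% of all tested genes, while 8.35% were lower without overlap and 16% were apart either way. The median log2 ratio was 0.08 over the 10 genes and -0.07 over all tested genes. The plot of levels by well shows the 10 genes side by side.

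**Figure D1:**
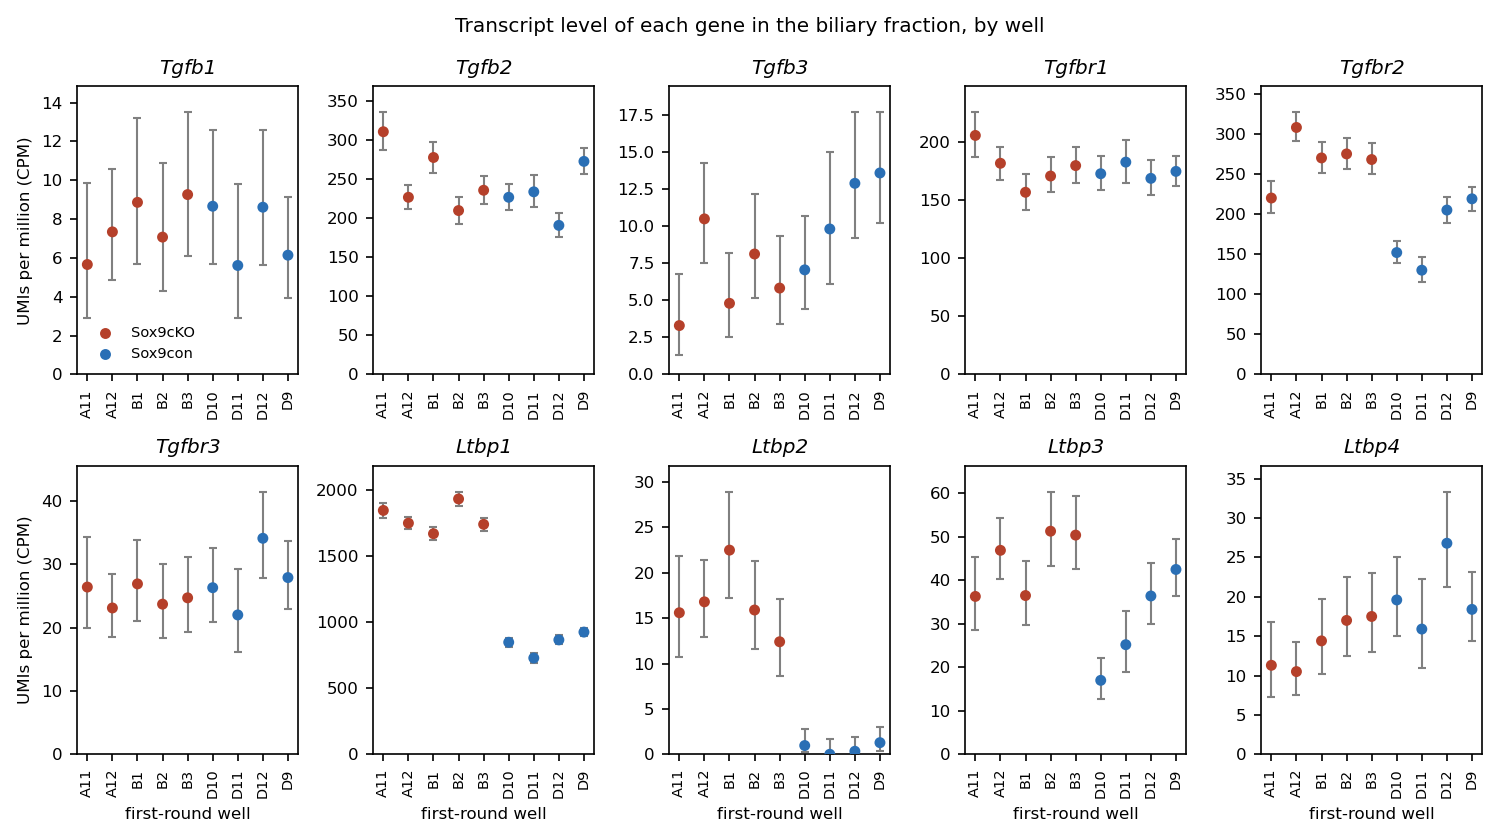
Level of each gene in the biliary fraction, in CPM (vertical axis from 0), in each first-round well of the libraries labelled Sox9cKO (red) and Sox9con (blue). Points are wells and bars exact 95% Poisson intervals. Ltbp1, Ltbp2 and Tgfbr2 separate the wells of the libraries, and the other 7 genes overlap.

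Among the ligands, Tgfb2 (ENSMUSG00000039239), known from development of the heart and of epithelia, had 3560 UMIs in the Sox9cKO-labelled and 2853 in the Sox9con-labelled biliary fraction. Its wells had 311, 227, 278, 210 and 236 CPM in the Sox9cKO-labelled library (wells A11, A12, B1, B2 and B3). They had 273, 227, 234 and 191 CPM in the Sox9con-labelled library (wells D9, D10, D11 and D12). The wells overlapped widely, and 13 of 20 pairs were higher in the Sox9cKO-labelled well. The log2 ratio of the pooled counts was 0.08 (95% interval 0.01 to 0.15), less than the spread between wells. A Tgfb2 UMI was seen in 42.4% of Sox9cKO-labelled and 32.4% of Sox9con-labelled biliary cells. With each cell thinned to 2000 UMIs, to even out depth, 2465 and 2806 cells remained, of which 27.1% (25.3 to 28.9) and 25.2% (23.6 to 26.8) held the transcript. Shallower cells were left out of this thinning, 139 of the Sox9cKO-labelled and 566 of the Sox9con-labelled library.

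Tgfb1 (ENSMUSG00000002603), the ligand best known from immune regulation and fibrosis, was rare in the biliary fraction, with 111 UMIs (7.71 CPM) and 89 UMIs (7.30 CPM). Its wells ran from 5.66 to 9.26 CPM in the Sox9cKO-labelled and from 5.61 to 8.66 CPM in the Sox9con-labelled library, nearly the same span. Tgfb3 (ENSMUSG00000021253), known from palate formation, had 100 and 135 UMIs. It stood at 3.3, 10.5, 4.80, 8.13 and 5.83 CPM in Sox9cKO-labelled wells A11, A12, B1, B2 and B3. In Sox9con-labelled wells D9, D10, D11 and D12 it stood at 13.6, 7.06, 9.82 and 12.9 CPM. Tgfb3 tended lower in the Sox9cKO-labelled library, but the wells overlapped, with 17 of 20 pairs lower and 3 higher. Its log2 ratio was -0.67 (-1.06 to -0.29), and 0.974% (0.625 to 1.45) and 2.39% (1.86 to 3.02) of thinned cells held a UMI of it. Ttll5, which overlaps Tgfb3 on the other strand but in no exon, stood at 84.3 and 113 CPM. Strand use and intron counting are not given in the sources used here, so the Tgfb3 level is uncertain to that extent.

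Among the receptors, Tgfbr2 (ENSMUSG00000032440), the type II receptor that binds the ligand first, was higher in the Sox9cKO-labelled library. It had 220, 308, 270, 275 and 268 CPM in wells A11, A12, B1, B2 and B3, against 219, 152, 130 and 205 CPM in wells D9, D10, D11 and D12. All 20 pairs were higher in the Sox9cKO-labelled well, though the lowest such well, A11, was only just above D9, with a pair ratio of 0.01 on the log2 scale. Pooled, 3937 and 2226 UMIs gave 274 and 183 CPM, a 1.49-fold difference and a log2 ratio of 0.58 (0.51 to 0.66), and all 8 sublibraries (the portions into which the barcoded cells were divided) went the same way. The share of cells with a Tgfbr2 UMI at 2000 UMIs per cell was 39.1% (37.1 to 41.0) and 27.1% (25.4 to 28.8). Tgfbr2 was thus counted in more of the cells as well as more often in all.

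Tgfbr1 (ENSMUSG00000007613), the type I receptor kinase, stood at 178 and 174 CPM with a log2 ratio of 0.03 (-0.05 to 0.11). Its wells ran from 157 to 206 CPM in the Sox9cKO-labelled and from 169 to 183 CPM in the Sox9con-labelled library, so the former enclosed the latter. Tgfbr3 (ENSMUSG00000029287), betaglycan, a co-receptor that presents the ligand, was at 24.7 and 28.0 CPM, and its wells overlapped. Of thinned biliary cells, 55.4% (53.4 to 57.4) and 47.1% (45.2 to 48.9) had a UMI of Tgfbr1 or Tgfbr2.

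The widest differences were those of the latent binding proteins Ltbp1 and Ltbp2. Ltbp1 (ENSMUSG00000001870), which ties latent TGF-beta to fibrillin and fibronectin in the matrix, had 1844, 1748, 1668, 1931 and 1739 CPM in Sox9cKO-labelled wells A11, A12, B1, B2 and B3. It had 924, 847, 728 and 865 CPM in Sox9con-labelled wells D9, D10, D11 and D12. The lowest Sox9cKO-labelled well was thus well above the highest Sox9con-labelled one, and the 20 pair ratios ran from 0.85 to 1.41 on the log2 scale. Pooled, 25631 and 10422 UMIs gave 1781 and 855 CPM, a 2.08-fold difference and a log2 ratio of 1.06 (1.03 to 1.09), in the same direction in 8 of 8 sublibraries. The transcript was widespread: 76.1% of thinned Sox9cKO-labelled cells (74.3 to 77.7) and 51.0% of Sox9con-labelled cells (49.1 to 52.9) had a UMI of it. Unthinned, 38.5% and 9.13% of cells had at least 10 UMIs of Ltbp1, and 1 cell had 138. Cells with at least 10 UMIs depend on depth, which differed between the libraries.

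Ltbp2 (ENSMUSG00000002020), a microfibril protein of elastic tissues that does not bind latent TGF-beta itself, was nearly confined to the Sox9cKO-labelled library. It had 33, 64, 61, 45 and 36 UMIs in wells A11, A12, B1, B2 and B3, or 15.6, 16.8, 22.5, 15.9 and 12.4 CPM. It had 5, 3, 0 and 1 UMIs in wells D9, D10, D11 and D12. Pooled, 239 UMIs (16.6 CPM) stood against 9 (0.739 CPM), a log2 ratio of 4.42 (3.54 to 5.64), higher in 20 of 20 pairs and 8 of 8 sublibraries. Few cells carried it: 115 of 2604 Sox9cKO-labelled cells (4.42%) and 9 of 3372 Sox9con-labelled cells (0.267%). Up to 15 of its UMIs were in 1 cell, so the transcript was concentrated where it occurred. Thinned, the shares were 1.99% (1.47 to 2.62) and 0.178% (0.0579 to 0.415). An antisense gene, D030025P21Rik, overlaps an exon of Ltbp2 on the other strand, but it had 0 UMIs in both libraries.

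Ltbp3 (ENSMUSG00000024940), needed for bone and tooth growth, stood at 36.3, 46.9, 36.5, 51.3 and 50.4 CPM in the 5 Sox9cKO-labelled wells in the same order. In Sox9con-labelled wells D9, D10, D11 and D12 it stood at 42.5, 17.0, 25.2 and 36.4 CPM, so that D9 and D12 reached the Sox9cKO-labelled range. The log2 ratio was 0.52 (0.33 to 0.70), with 17 of 20 pairs higher. Thinned shares of 6.37% (5.44 to 7.41) and 5.17% (4.38 to 6.05) of cells had overlapping intervals. Whether the counting used strand is not given in the sources used here, so the Ltbp3 level is uncertain to that extent. Ltbp4 (ENSMUSG00000040488), which serves elastic fibre assembly in lung and vessels, had 11.3, 10.5, 14.4, 17.0 and 17.5 CPM in the Sox9cKO-labelled wells. It had 18.4, 19.6, 15.9 and 26.8 CPM in Sox9con-labelled wells D9, D10, D11 and D12. Its log2 ratio was -0.53 (-0.81 to -0.26), and 2 of 20 pairs went the other way, all other pairs being lower in the Sox9cKO-labelled well.

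The sequences just upstream of the Ltbp1 and Ltbp2 start sites are shown because these 2 genes differed most between the libraries. They are from the RefSeq promoter table of build GRCm38.p6, which is not the GRCm39 build of the counts, and cover the 250 bases before each start, with Ltbp1 having 2 annotated starts. Capitals mark matches to the SMAD box CAGAC on either strand (GTCTG read on the printed strand).
Ltbp1 first start, chr17:75005279-75005528, strand plus: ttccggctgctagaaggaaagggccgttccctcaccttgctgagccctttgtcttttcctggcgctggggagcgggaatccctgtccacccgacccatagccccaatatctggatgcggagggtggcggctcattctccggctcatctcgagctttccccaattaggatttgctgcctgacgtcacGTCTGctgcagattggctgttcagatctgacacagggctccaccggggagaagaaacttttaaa
Ltbp1 second start, chr17:75178531-75178780, strand plus: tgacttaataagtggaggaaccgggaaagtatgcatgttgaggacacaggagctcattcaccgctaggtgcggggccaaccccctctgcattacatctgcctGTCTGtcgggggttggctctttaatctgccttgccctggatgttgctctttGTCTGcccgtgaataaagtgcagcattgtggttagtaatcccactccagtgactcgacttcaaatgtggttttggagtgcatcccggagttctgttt
Ltbp2, chr12:84876492-84876741, strand minus: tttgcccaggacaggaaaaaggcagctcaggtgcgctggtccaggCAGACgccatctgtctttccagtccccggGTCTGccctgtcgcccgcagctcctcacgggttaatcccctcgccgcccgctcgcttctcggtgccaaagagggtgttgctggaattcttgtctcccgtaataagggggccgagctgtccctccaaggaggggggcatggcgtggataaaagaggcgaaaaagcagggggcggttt
The windows held 1, 2 and 2 matches. In all, 8 of the 10 genes had 12 such windows, and 7 of these windows, in 6 genes, held the SMAD box, which occurs in 42.2% of the 32851 promoter windows of that length. None of the 12 windows held the SOX core AACAAT (9.42% of all windows), the AP-1 site TGANTCA (6.75%) or the TEAD site GGAATG (12.6%), each searched on both strands. The letters describe these windows only.

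Which biliary cells held these transcripts was examined in 9 clusters of the biliary fraction, made without the 10 genes and without Sox9. Clusters 0 and 4 were almost all Sox9cKO-labelled (993 and 34 cells, 507 and 3 cells), and cluster 8 almost all Sox9con-labelled (36 and 929 cells), so such a cluster may be a library and no cell type. Cluster 4 was led by Hp, Gc and Adamtsl1, cluster 2 by Car4, Tff2 and Msln, cluster 3 by Muc6, cluster 5 by Muc4, and cluster 7 by Adgrv1 and Hspa1a. Spp1, in cluster 8, was the only biliary marker among the 10 leading genes of any cluster. Msln and Pecam1, which mark mesothelial and endothelial cells, were among those of clusters 2 and 6. Leading genes set each cluster against the rest of the biliary fraction, so markers shared by the whole fraction need not be among them. All 9 clusters had all 14 biliary markers at 50 CPM, as did a cluster left unnamed and set aside. The biliary fraction is the cells left once the other classes were set aside, and its clusters are given by number.

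Ltbp2 sat mainly in cluster 4, which held 74.1% of its Sox9cKO-labelled UMIs at 52.4 CPM, beside 23.5% of the UMIs of all genes. Clusters 0 and 1 held 11.3% each, beside 39.7% and 1.66% of the UMIs of all genes. Cluster 1, with 24 such cells, was led by genes that include Mki67 and Top2a. The Ltbp2 level was higher still in it, at 113 CPM (74.3 to 164) in 33.3% of cells against 16.4% in cluster 4. No Ltbp2 UMI was counted in the 413, 387 and 112 Sox9cKO-labelled cells of clusters 2, 3 and 5, where 0 UMIs leave upper 95% limits of 1.96, 1.98 and 5.36 CPM. Cluster 4 had 3 Sox9con-labelled cells, so no library ratio within it can be given. In the clusters with cells of both libraries, Ltbp2 had 4 and 2 UMIs in cluster 7 (log2 ratio 3.78, 1.48 to 7.75) and 4 and 2 UMIs in cluster 6 (1.86, -0.62 to 5.65), and at most 1 UMI per library in clusters 2, 3 and 5. The genes most like Ltbp2 over 13 profiles (clusters by library with at least 50 cells) were Vav3 and Serpina1b (Pearson r 0.94 each) and Abcc2 (0.93), on the log2 scale of CPM + 10. Ltbp2 was at most 16.7 CPM in the profiles other than Sox9cKO-labelled cluster 4, so that profile weighs heavily in these values. Serpina1b was among the leading genes of cluster 4.

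Ltbp1 was spread otherwise. In the Sox9cKO-labelled library it was highest in cluster 0 (2576 CPM, 57.5% of its UMIs) and cluster 2 (2309 CPM), and lowest in cluster 7 (330 CPM). At a clustering resolution of 1 its largest share of UMIs in a cluster was 36.2%, and 30.1% under the Sox9con label. In the Sox9con-labelled library it was highest in cluster 2 (1594 CPM, 47.1% of its UMIs), while clusters 6 and 7 had 114 and 119 CPM. Among the 5 clusters with at least 50 cells of each library, the order from cluster 2 to 3 to 5 was the same in both, with clusters 6 and 7 lowest. Tgfbr2 ran closest to it among the 10 genes over the 13 profiles (r 0.91), and Ssh1 was the gene most like each of the 2 (r 0.95 and 0.96). Ligands went another way: Tgfb1, Tgfb2 and Tgfb3 ran together (r 0.75 to 0.78), and Tgfbr2 and Tgfbr3 ran against them. With Tgfb1, Tgfb2 and Tgfb3, r was -0.72, -0.45 and -0.75 for Tgfbr2 and -0.85, -0.72 and -0.66 for Tgfbr3. These 13 profiles share the cells' depth and the 2 libraries, and the values are a description. In them Tgfb1 and Tgfb3 were at most 18.1 and 32.5 CPM, near the counting floor.

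Among clusters with at least 50 cells, Tgfb2 was highest in cluster 7, at 467 CPM in the Sox9cKO-labelled and 534 CPM in the Sox9con-labelled library. In the latter that cluster held 43.7% of the Tgfb2 UMIs, beside 19.1% of all UMIs. Tgfb2 was lowest in the Muc4-led cluster 5, at 33.4 and 7.42 CPM, and low in the Muc6-led cluster 3, at 65.6 and 47.4 CPM. The highest cluster was therefore 14-fold and 72.0-fold above the lowest within a library. The latter value rests on 7 UMIs in cluster 5 (2.98 to 15.3 CPM). Pooled over clusters, the libraries differed 1.06-fold, which is another measure than a span between extremes. The genes most like Tgfb2 were Sox5, Hspg2 and Abtb2 (r 0.98 each), Sox5 being another SOX factor and Hspg2 the matrix proteoglycan perlecan. Tgfb3 also had its largest share in cluster 7 of the Sox9con-labelled library, 43.0% of 135 UMIs beside 19.1% of all UMIs. At a resolution of 1 the largest share was 23.0%, in a cluster with 4.73% of all UMIs. Ltbp4 was highest in cluster 2, at 26.6 and 34.4 CPM. Tgfbr1 varied less between clusters, between 94.6 and 209 CPM over the clusters of the Sox9cKO-labelled library and between 119 and 200 CPM in the Sox9con-labelled one.

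For the other genes the most alike profiles, among 9330 genes and over the same 13 profiles, were as follows. Tgfb1 ran closest to Ttbk2 (r 0.95), Tanc1 and Stat5a (0.94 each), and Tgfb3 to Ints6 (0.96), Glcci1 and Crebl2 (0.95 each). Both ligands were near the counting floor, at no more than 18.1 and 32.5 CPM in any profile, so counting error weighs on their values. Tgfbr1 ran closest to Ifnar2 (0.92), an interferon receptor chain, and Tgfbr3 to Gsn and Cyp2s1 (0.94 each). Ltbp3 ran closest to Rere (0.92) and Ltbp4 to Gprc5a (0.93).

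Counted as sets in thinned cells, a UMI of any of the 3 ligands was held by 28.5% and 27.5% of biliary cells of the Sox9cKO and Sox9con labels. A UMI of any latent binding protein was held by 79.3% (77.7 to 80.9) and 54.8% (52.9 to 56.7). The libraries thus stood apart in cells with any latent binding protein. Ltbp1 alone was held by 76.1% and 51.0% of cells, and Ltbp2 by 1.99% and 0.178%. For Ltbp3 (6.37% and 5.17%) and Ltbp4 (3.0% and 3.6%) the 95% intervals overlapped. The intervals of the ligands as a set (26.7 to 30.3 and 25.8 to 29.2) overlapped too. In all, 93.6% and 82.8% of biliary cells held at least 1 UMI of the 10 genes.

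**Figure D2:**
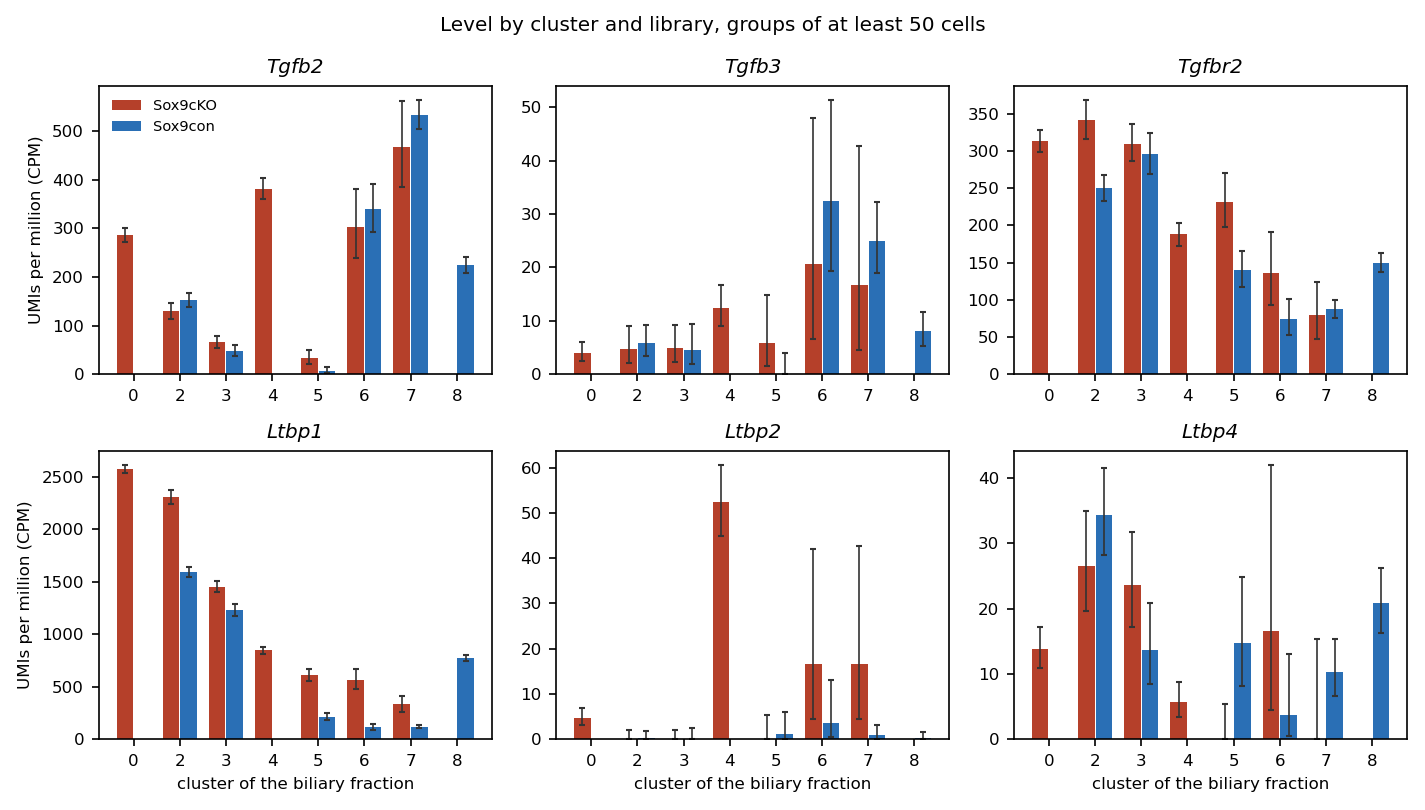
Level in CPM (axis from 0) of 6 of the genes in clusters of the biliary fraction, for each library with at least 50 cells in the cluster (a missing bar means fewer cells). Bars are pooled levels and whiskers exact 95% Poisson intervals. Ltbp2 stands out in cluster 4, Tgfb2 is highest in cluster 7 and Tgfb3 in cluster 6, and Ltbp1 and Tgfbr2 are highest in clusters 0, 2 and 3.

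Within the 5 clusters with at least 50 cells of each library (2, 3, 5, 6 and 7), Ltbp1 was higher in the Sox9cKO-labelled cells of all 5. Its log2 ratios were 0.53 (0.48 to 0.59), 0.24 (0.16 to 0.33), 1.52 (1.28 to 1.78), 2.30 (1.88 to 2.77) and 1.46 (1.09 to 1.83), in that order. The ratio was thus smallest in clusters 2 and 3, where Ltbp1 was most abundant. Combined over clusters (Mantel-Haenszel ratio), it was 0.51, lower than the pooled 1.06 and below 2-fold. The weight of a cluster in this ratio follows the library with fewer UMIs there. Clusters 0, 4 and 8, almost all of 1 library, therefore count little in it. Tgfbr2 was higher beyond counting error in clusters 2 (0.45), 5 (0.73) and 6 (0.86) and not in clusters 3 (0.07) and 7 (-0.13), and its combined ratio was 0.25. The combined ratio of Ltbp2 was 2.05, against 4.42 pooled. Clusters 0 and 4 were almost all Sox9cKO-labelled, so cluster and library cannot be told apart there. The part of the cluster mix in the library differences of these 3 genes was not tested.

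Tgfb2 had log2 ratios of -0.23 (-0.46 to -0.01) for cluster 2 and 0.47 (0.04 to 0.91) for cluster 3. Cluster 5 gave 2.08 (0.90 to 3.63; 23 and 7 UMIs), and the combined ratio of Tgfb2 was -0.16. Its direction thus depended on the cells compared. Ltbp3 was higher in cluster 2 (0.59, 0.18 to 1.01) and in cluster 5 (2.31, 1.35 to 3.55; 38 and 10 UMIs), with a combined ratio of 0.64. Tgfbr1 was within counting error in all 5 clusters. Sox9 went both ways. It was higher under the Sox9cKO label in clusters 2 (0.37, 0.11 to 0.63), 3 (0.46, 0.13 to 0.79) and 5 (0.49). In clusters 6 (-0.68, -1.27 to -0.12) and 7 (-0.48, -0.96 to -0.03) it was lower. Intervals cover counting error only.

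**Figure D3:**
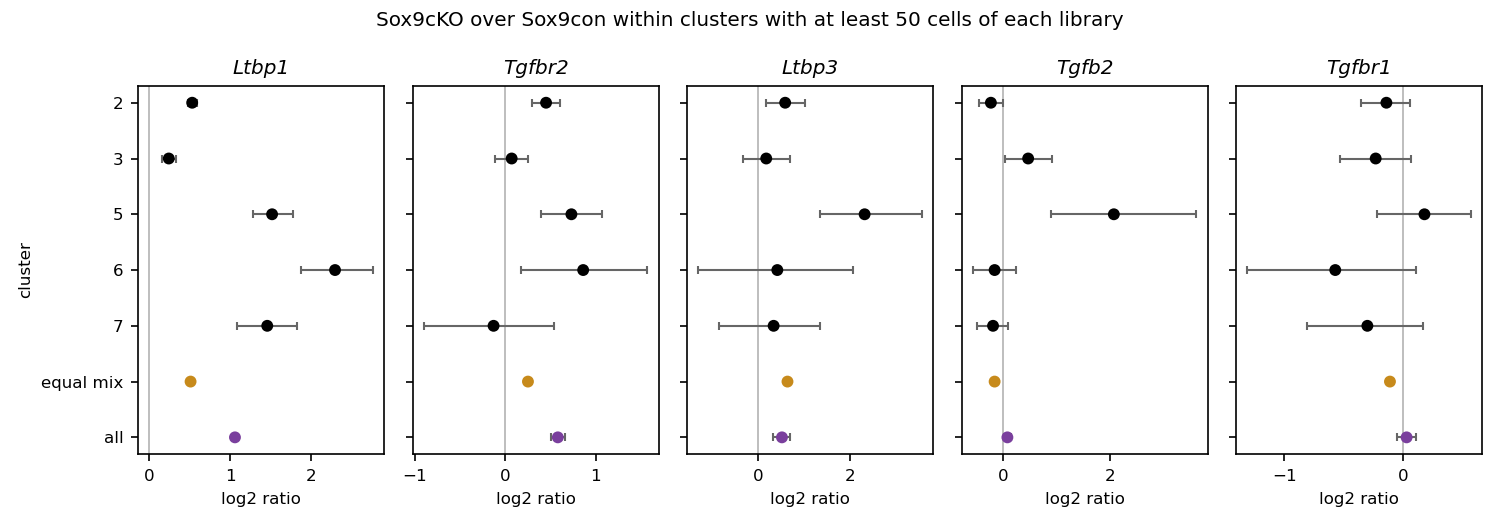
Log2 ratio of the library labelled Sox9cKO over that labelled Sox9con for 5 of the genes. Black points are single clusters, orange the combined Mantel-Haenszel ratio over clusters (axis label equal mix) and purple the pooled biliary fraction. Bars are exact 95% counting intervals, none being drawn for the combined value, and each panel has its own horizontal scale. Ltbp1 lies above 0 in all 5 clusters, and its combined value of 0.51 lies below the pooled 1.06.

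Endothelial-like cells differed from the biliary fraction in most of these genes, and in the same way in both libraries. Of the 10 genes, 3 were at least 2-fold higher in endothelial-like cells of both libraries (Tgfb1, Tgfbr3, Ltbp4) and 3 at least 2-fold lower (Tgfb2, Ltbp1, Ltbp3). Over 9483 genes tested, 10.2% were at least 2-fold higher in both and 22.2% at least 2-fold lower. The 10 genes did not enter the clustering that set the cells apart. Transcripts of the other cell type were seen at a low level in each: Epcam, Krt19 and Spp1, which mark biliary cells, had log2 ratios of endothelial-like over biliary cells between -3.88 and -2.90. Pecam1, Cdh5 and Stab2, which mark endothelium, had ratios between 6.31 and 10.05.

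Tgfb1 was the ligand of endothelial-like cells, at 329 CPM (262 to 408) in the Sox9cKO-labelled and 384 CPM (322 to 455) in the Sox9con-labelled library, 42.2-fold and 52.0-fold above the biliary fraction. A UMI was seen in 40 of 83 and 61 of 115 of these cells, against 3.42% and 2.19% of biliary cells. At 2000 UMIs per cell the shares were 31.5% (19.5 to 45.6) and 43.7% (31.9 to 56.0) of endothelial-like cells, and 1.26% and 1.39% of biliary cells. Tgfb1 was found in every well's endothelial-like cells, with 14 to 20 UMIs per Sox9cKO-labelled and 18 to 56 per Sox9con-labelled well. Pecam1 had a UMI in 2.84% and 3.83% of biliary cells, and thinned in 1.54% and 2.28%. The thinned biliary share of Tgfb1 was below that of this endothelial marker, which is itself among the leading genes of biliary cluster 6. The log2 ratio of endothelial-like over biliary cells, 5.4 and 5.7 for Tgfb1, was smaller than the 7.48 and 6.31 of Pecam1 and smaller than those of Cdh5 and Stab2. Over biliary clusters with at least 50 cells, Tgfb1 ran from 1.61 to 16.7 CPM under the Sox9cKO label and from 0 to 18.1 CPM under the Sox9con label.

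Tgfbr3 was at 483 and 370 CPM in endothelial-like cells, 19.4-fold and 13.2-fold above the biliary fraction, and Ltbp4 at 174 and 152 CPM, 12.4-fold and 7.46-fold above it. Tgfbr3 was seen in 45.8% and 48.7% of the cells, and Ltbp4 in 32.5% and 23.5%. In the Sox9con-labelled library 20 of the 53 Ltbp4 UMIs came from 1 cell. The biliary level of Ltbp4 relative to the endothelial one was far above that of Pecam1, Cdh5 and Stab2. Tgfbr1 (151 and 143 CPM) and Tgfbr2 (238 and 198 CPM) differed from the biliary level by less than counting error, with log2 ratios from -0.28 to 0.12. Both signalling receptors were therefore counted in both cell types.

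Tgfb2 was at 15.8 and 22.9 CPM in endothelial-like cells, with log2 ratios to the biliary fraction of -3.96 and -3.35. Ltbp1 was at 214 and 178 CPM there, with ratios of -3.06 and -2.27. In the same order of libraries, Epcam had -3.18 and -3.01, Krt19 -3.02 and -3.53, and Spp1 -2.90 and -3.88. How much of the Tgfb2 and Ltbp1 counts in endothelial-like cells came from biliary RNA was not tested. Of the Ltbp1 UMIs, 33 of 54 and 24 of 62 came from 1 cell in each library. With cells holding an Epcam or Krt19 UMI left out (20 of 83 and 35 of 115), and biliary cells holding an endothelial marker UMI likewise, the Ltbp1 log2 ratios were -5.49 and -2.89, a setting chosen after the data were seen. With the 5% of cells of highest doublet score left out they were -5.15 and -5.13. Ltbp3 had 3 UMIs in each library (11.9 and 8.61 CPM), Ltbp2 1 in each, and Tgfb3 1 and 0. The 0 of Tgfb3 has an upper 95% limit of 10.6 CPM, close to the 11.1 CPM of the biliary fraction in that library.

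Between the libraries, the endothelial-like cells differed by less than counting error in every one of the 10 genes but Tgfbr3, whose log2 ratio was 0.38 (0.02 to 0.75). For Tgfbr2 the ratio there was 0.26 (-0.26 to 0.78) and for Ltbp1 0.26 (-0.29 to 0.82), at 60 and 69 and at 54 and 62 UMIs. Whether the biliary and the endothelial-like ratios differ was not tested. At this depth only differences larger than these intervals could be seen.

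**Figure D4:**
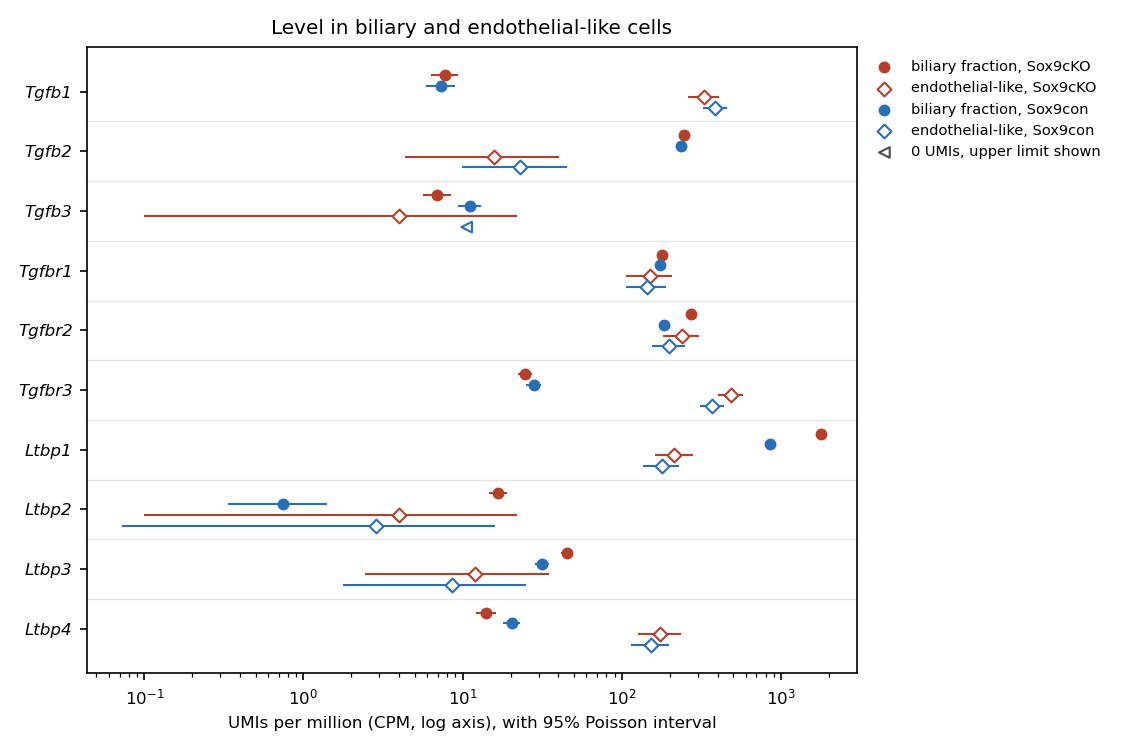
Level of each gene in CPM (log axis) in the biliary fraction (filled circles) and in endothelial-like cells (open diamonds) of the libraries labelled Sox9cKO (red) and Sox9con (blue), with exact 95% Poisson intervals. A triangle marks the upper limit for 0 UMIs. Tgfb1, Tgfbr3 and Ltbp4 lie to the right in endothelial-like cells, Tgfb2, Ltbp1 and Ltbp3 in biliary cells, and Tgfbr1 and Tgfbr2 coincide.

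The rest of the pathway was read from 5 lists of genes. Of 13 tested genes that activate latent TGF-beta, 2 passed 2-fold upward in the biliary fraction of the Sox9cKO-labelled library and none passed it downward, where 2.19% and 1.79% of all tested genes did, and the median log2 ratio was 0.51, against -0.07 over all tested genes. They were Plg, plasminogen, with 250 and 3 UMIs (log2 ratio 5.94, 4.58 to 8.43), and Plau, the urokinase that cleaves it, at 26.4 and 7.39 CPM (1.83). Plg is known as a hepatocyte product. The summed level of 12 hepatocyte markers in the biliary fraction was 1167 CPM (wells 951 to 1290) and 936 CPM (wells 857 to 1003), with Cyp7a1 at 0 in both libraries. Of that list Alb (589 and 365 CPM) and Hnf4a (480 and 371 CPM) were higher under the Sox9cKO label, while Ttr (log2 ratio -1.18), Cps1 (-0.64) and Apoa1 (-0.62) were lower. The part of these markers in the Plg difference was not tested. Itgav and Itgb6, which pair into the integrin that frees TGF-beta on epithelia, stood at 1181 and 828 CPM (0.51, 0.48 to 0.55) and at 592 and 361 CPM (0.72, 0.66 to 0.77). Both were higher in 20 of 20 well pairs. Thbs1, thrombospondin, an activator, was at 740 and 461 CPM (0.68), with 19 of 20 pairs higher. Itgb8, which pairs with the same alpha chain, had the lowest ratio (-0.42), and Itgb5 the next (-0.17). The median was 0.06 in cells thinned to 2000 UMIs and 0.27 without well A12. In both settings the minimum of 200 UMIs was applied again, so the genes behind the median can differ.

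Of the matrix anchors, 4 of 14 reached 200 UMIs, with a median of -0.34. Fn1, the fibronectin to which Ltbp1 is fixed, was higher, at 500 and 155 CPM (1.69, 1.62 to 1.76; 20 of 20 pairs), and Bgn (-0.56) and Fbln2 (-0.37) had the lowest ratios. Fbn1, the fibrillin of microfibrils, had 9 and 3 UMIs in the biliary fraction and stood at 31.7 and 31.6 CPM in endothelial-like cells. Among 6 tested receptors and regulators the median was -0.06. Nrp2, a neuropilin co-receptor, was higher at 47.5 and 7.39 CPM (2.68, 2.37 to 3.02) but stood at 693 and 691 CPM in endothelial-like cells, and Tgfbrap1 had the next ratio (0.20). Vasn, a ligand trap, had -0.49 and Nrp1 -0.28. Eng and Acvrl1, the endothelial co-receptor and type I receptor, had 2.43 and 3.36 CPM and 3.89 and 4.19 CPM in the biliary fraction. Eng stood at 1612 and 1403 CPM in endothelial-like cells and Acvrl1 at 27.7 and 31.6 CPM. Lrrc32, which holds latent TGF-beta on the cell surface, stood at 0.486 and 0.492 CPM in biliary and 305 and 301 CPM in endothelial-like cells.

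None of 13 tested SMAD signalling genes was 2-fold apart, near the share of all tested genes that were (3.98%). The median of the 13 was 0.01. Smad3, the receptor-activated SMAD, stood at 1556 and 1423 CPM (0.13), and Smad2 stood at 119 and 128 CPM (-0.11). The inhibitory Smad7 stood at 29.3 and 29.1 CPM (0.01) and Smad6 at 0.16. Skil (0.49), a SMAD co-repressor induced by the pathway, and Smurf1 (0.16), a ubiquitin ligase of the receptor complex, were at the upper end. Tgif1 (-0.49), another co-repressor, and Ppm1a (-0.24), a SMAD phosphatase, were at the lower end.

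Of 14 tested target genes, 4 were at least 2-fold higher and none lower, beside 2.19% and 1.79% of all tested genes, with a median of 0.61. Ltbp2 and Ltbp3 are themselves on the list, and without them it was 3 of 12 and a median of 0.60. Cdkn2b, the p15 cell cycle inhibitor, was at 13.5 and 4.92 CPM (1.45, 1.03 to 1.90). Ccn2, connective tissue growth factor, was at 33.3 and 13.5 CPM (1.30, 1.05 to 1.57). Both were higher in 20 of 20 pairs. Junb (-0.50) and Jun (-0.18) had the lowest ratios, Pmepa1, a feedback inhibitor, had 0.02, and Tgfbi had too few UMIs (49 and 33). The median was 0.30 in thinned cells, where the minimum of 200 UMIs was applied again and the genes behind the median can differ. These lists were chosen with earlier results of the same data known and support nothing beyond their counts.

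**Figure D5:**
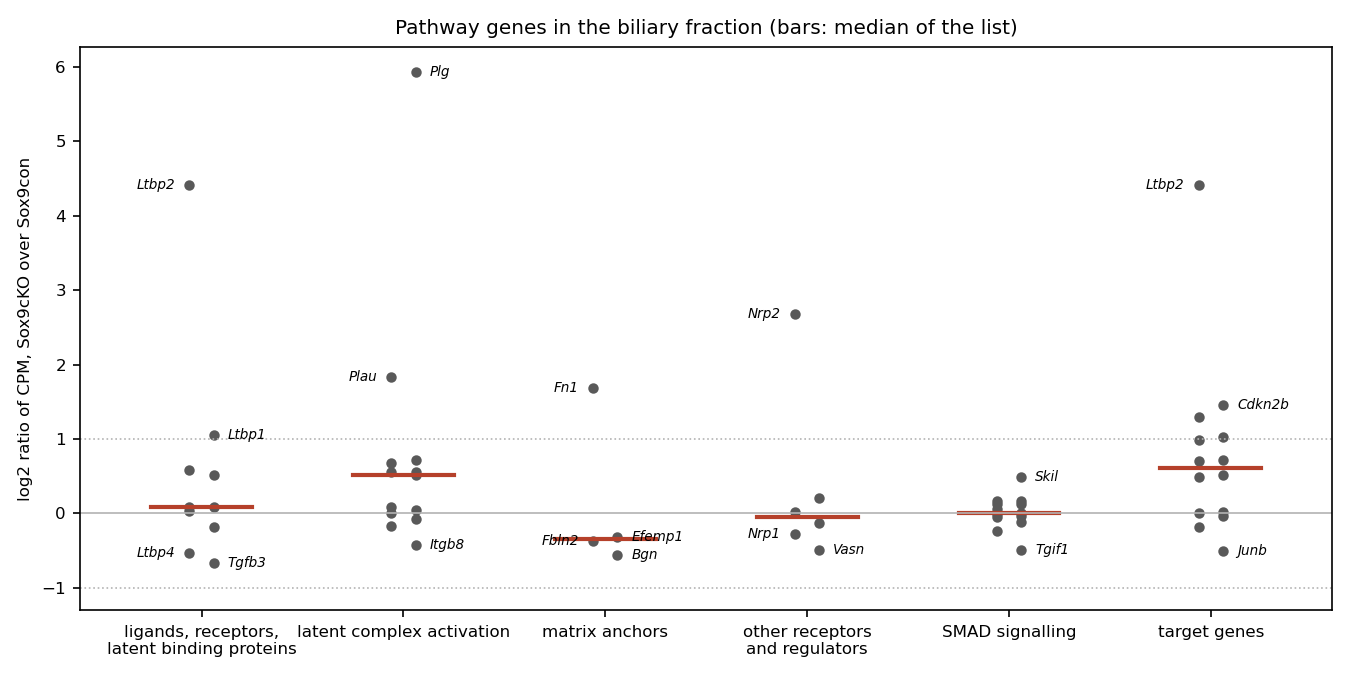
Log2 ratio of CPM of the library labelled Sox9cKO over that labelled Sox9con in the biliary fraction for the tested genes of each list (points) with the list's median (bar). Dotted lines mark 2-fold. SMAD signalling genes lie within 2-fold, a limit that only 3.98% of all tested genes pass. The medians of the activation and target lists are 0.51 and 0.61.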

How the data were processed

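The deposited files hold whole-number UMI counts per gene and cell for 2 libraries of mouse liver biliary epithelial cells, made by split-pool barcoding with random hexamer and oligo(dT) primers, per the labels' protocols. The submitters' processing notes name build GRCm39. The aligner, the strand setting and the treatment of intron reads are not given in the sources used here. Cells needed 500 genes and 1000 UMIs, and those above 15% mitochondrial UMIs were dropped. Scrublet marked 3 of 6362 cells (0.0472%), so doublet removal is taken not to have worked and doublets remain. Cells were clustered with scanpy 1.11.5 (2000 variable genes, 30 components, 15 neighbours, resolution 0.5) without Sox9 and the 10 genes, and classes were named from marker lists (50 CPM, at least 3 markers). UMIs were summed per library and class and divided by the class total (CPM). Ratios of summed counts used a pseudocount of 0.5 UMIs and genes with at least 200 UMIs. Intervals are exact (Poisson, conditional binomial or Clopper-Pearson, 95%) and cover counting error only. There was 1 library per group, so no test was run. The first-round wells are taken as parts of 1 suspension, which the labels do not state. Exon and gene lengths came from a GRCm38 annotation by Ensembl identifier. TMM scaling (edgeR 4.0.16) and DESeq2 1.42.0 size factors served as alternatives. The ratios, their intervals and the thinning were run on simulated Poisson counts, which hold no spread between wells beyond counting error. Beyond the 10 genes, the text names the 2 highest and 2 lowest of each pathway list, a set of fixed pathway genes, and the 3 genes most alike in profile. The 10 genes and all lists were chosen with earlier results of these data known. Some genes that these rules would name are not reported here.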

Additional observations from a re-analysis of the deposited data

Results flagged for a closer look

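A small cluster marked by smooth muscle and pericyte genes, led by Myh11, Cacna1c and Col1a2, lay outside the comparisons, with 8 cells in the Sox9cKO-labelled and 7 in the Sox9con-labelled library. It is given here because Tgfbr3 and Ltbp4 were above the level of the biliary fraction in both libraries, which did not hold for all 10 genes. Tgfbr3 stood at 492 CPM (18 UMIs, 95% interval 291 to 777) in the Sox9cKO-labelled cells, against 24.7 CPM in the biliary fraction. It stood at 225 CPM (4 UMIs, 61.3 to 576) in the Sox9con-labelled cells, against 28.0 CPM. Ltbp4 stood at 519 CPM (19 UMIs, 312 to 811) against 14 CPM, and at 675 CPM (12 UMIs, 349 to 1179) against 20.4 CPM. So few cells allow no comparison of the libraries.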

How the results depend on the processing

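No paired analysis was possible because there was 1 library per group and the labels give no replicate numbers. Under the alternatives run, the log2 ratios of Ltbp1, Ltbp2, Ltbp3 and Tgfbr2 between the libraries stayed above 0 and those of Ltbp4 and Tgfb3 below 0, while those of Tgfb1, Tgfb2, Tgfbr1 and Tgfbr3 took both signs. Ltbp1 kept a log2 ratio between 0.51 and 1.13, Ltbp2 between 2.05 and 4.98 and Tgfbr2 between 0.25 and 0.72. Thinned to 2000 UMIs, 110 genes were at least 2-fold higher and 104 lower (204 and 167 unthinned). Of the 10 genes, 1 was higher, and the medians were 0.06 for activation genes and 0.30 for targets. The minimum of 200 UMIs was applied again to the thinned counts, so fewer genes were tested. Ltbp2, with 65 and 5 thinned UMIs (13.2 and 0.891 CPM), was no longer among them. With a minimum of 20 UMIs, 620 genes were higher and 740 lower, and the medians were 0.37 for anchors, -0.28 for receptors and regulators and 0.17 for targets. With a minimum of 100 UMIs, 266 genes were lower. Over all kept cells the activation median was 0.25. Without biliary cells holding an endothelial marker UMI, a setting chosen after seeing the data, 1 of the 10 genes was higher. Leaving out 1 well at a time gave 174 to 233 genes higher and 112 to 386 lower (386 without D9), 1 to 2 of the 10 genes higher (1 without A12 or B1, where Ltbp2 falls below 200 UMIs), and an activation median of 0.27 to 0.51. Thinned to 1000 UMIs, again with a minimum of 200 UMIs per gene, 460 genes were higher and 1319 lower in endothelial-like cells of both libraries. The largest share of a gene's UMIs in 1 cluster depended on the clustering and moved beyond its interval in 29 of the 40 values at a resolution of 1 or with 4000 variable genes. TMM and DESeq2 scaling shifted all log2 ratios by 0.06 and 0.07. Endothelial-like values rest on 252440 and 348601 UMIs, which limits what can be seen there.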

Other observations

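An unnamed cluster led by Fyb, Mctp1 and Dgki held 17 cells of the Sox9cKO-labelled and 11 of the Sox9con-labelled library. It had 0 UMIs of Tgfb2 in both, and Tgfbr1 stood at 169 and 266 CPM. In the cells marked by smooth muscle and pericyte genes, Ltbp1 stood at 546 and 619 CPM, and Tgfb3 at 54.6 and 225 CPM from 2 and 4 UMIs.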
